A study of Mus musculus with 9 samples.

Results

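The genes described here are 10 of the 55401 features in the deposited table: 8 genes known to be induced by glucocorticoids (Fkbp5, Tsc22d3, Zbtb16, Klf9, Mt1, Mt2, Errfi1 and Angptl4), the glucocorticoid receptor gene Nr3c1 and Hsd11b1, whose enzyme makes active hormone. The rows were taken by symbol, and all 10 passed the expression filter that kept 21925 genes. The list was chosen by a proposal made with the measured changes of these libraries in all 3 comparisons in view, so the values of the 10 genes and the counts of calls among them are a description and no independent evidence. No threshold on a measured value entered the rule.

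The study sequenced messenger RNA of C57 mouse ears in 9 libraries, 3 per group. The control ears received absolute ethyl alcohol, the MC903 ears received MC903 (calcipotriol, a vitamin D analogue used to model atopic dermatitis), and a further group was given paeonol, a phenol of peony root bark, at 200 mg/kg in addition to MC903. No group received paeonol alone, and every paeonol library also carries MC903. The labels give no sex, age or time of collection and do not say that libraries of a group came from separate animals; p-values therefore measure the spread between libraries, which may be technical. The estimated counts of a library summed to between 54264605 and 57745225. Coordinates are those of GRCm38.

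Corticosterone, the main glucocorticoid of mice, enters cells and binds a receptor that is held ready in the cytoplasm by the HSP90 chaperones. The bound receptor moves to the nucleus and raises or lowers the transcription of many genes. Skin both responds to circulating hormone and handles it locally, through the enzyme encoded by Hsd11b1, which regenerates corticosterone from an inactive form, and through enzymes that inactivate it. Several of the induced genes feed back: FKBP5 lowers the hormone affinity of the receptor, and receptor messenger RNA itself often falls when the receptor is active. The same genes answer to other signals as well, metallothioneins to zinc and Angptl4 to fatty acids.

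The promoters shown are those of the neighbouring metallothionein genes Mt1 and Mt2, which moved together, and the upstream promoter of Tsc22d3, in which the receptor motif was found. RefSeq windows (GRCm38.p6) were matched for 7 of the 10 genes, in 10 windows; Zbtb16, Angptl4 and Nr3c1 had no entry. The 250 bases before each start were searched on both strands. All are given 5′ to 3′. Mt2 (plus strand, chr8:94172368-94172617) runs up to its RefSeq start, and Mt1 (plus strand, chr8:94178839-94179081) up to the annotated gene start. In both, matches to the metal response element core (TGCGCNC or TGCACNC, either strand) are in capitals. Tsc22d3 (minus strand, chrX:140600660-140600772) also runs up to the annotated gene start. Its capitals mark the core hexamer of the receptor's binding site (AGAACA, or TGTTCT on the other strand).
Mt2: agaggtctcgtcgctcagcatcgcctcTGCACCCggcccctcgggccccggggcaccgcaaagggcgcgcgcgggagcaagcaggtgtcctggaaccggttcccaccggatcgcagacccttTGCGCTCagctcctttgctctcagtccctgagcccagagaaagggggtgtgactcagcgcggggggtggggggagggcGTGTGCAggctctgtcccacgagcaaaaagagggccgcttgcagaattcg
Mt1: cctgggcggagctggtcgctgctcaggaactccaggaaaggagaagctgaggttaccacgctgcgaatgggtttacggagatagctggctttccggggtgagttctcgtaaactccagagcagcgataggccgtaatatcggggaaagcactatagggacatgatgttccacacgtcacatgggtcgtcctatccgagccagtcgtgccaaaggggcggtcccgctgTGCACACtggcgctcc
Tsc22d3: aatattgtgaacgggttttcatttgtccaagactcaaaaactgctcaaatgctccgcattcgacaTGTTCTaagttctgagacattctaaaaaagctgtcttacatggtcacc
Mt2 held 3 matches to the metal response element core in its 250 bases, and 1.26% of all 32851 windows held at least 3. Mt1 held 1 match and Hsd11b1 another, and 21.4% of all windows held at least 1. For Mt1, which has 3 annotated transcripts, only the bases before the RefSeq start at 94179089 were searched. Any match further downstream is not counted, so Mt1 and Mt2 are not compared by these counts. The hexamer AGAACA was found in 1 of the 10 windows, that of Tsc22d3, against 16.1% of all windows. The full palindrome, AGAACA followed by NNN and TGTTCT, was in none of the 10 windows and in 0.00913% of all windows. These matches are descriptions of letters and say nothing on whether a protein binds there.

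Expression is given in CPM, the count of a gene relative to its TMM-scaled library size. Changes are log2 changes with their standard error (SE) from an edgeR quasi-likelihood fit of all 9 libraries, and calls required a p below 0.05 after Benjamini-Hochberg adjustment over all genes tested. Of the 10 genes, 9 were called in MC903 against control, 10 in paeonol against MC903 and 7 in paeonol against control, beside 46.8%, 29.7% and 30.9% of all genes tested; nothing is read from these counts, since the genes were proposed with them known. In MC903 ears all 8 induced genes were called higher than in control, Nr3c1 was called lower, and Hsd11b1 was not called. Genes called higher made up 23.0% and genes called lower 23.8% of all genes tested in that comparison. With paeonol all 8 induced genes and Hsd11b1 were called lower than in MC903 alone and Nr3c1 higher, where 14.3% of all genes were called lower and 15.3% higher. Both comparisons use the same 3 MC903 libraries, so they are not independent of each other. The compared groups did not overlap in CPM for 10 of 10 genes in each of these comparisons, against 58.1% and 43.9% of all genes, and for 7 of 10 in paeonol against control, against 46.4%. The median log2 change of the 8 induced genes was 1.24 for MC903 against control and -1.21 for paeonol against MC903, beside medians of -0.02 and 0.00 over all genes tested.

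**Figure D1:**
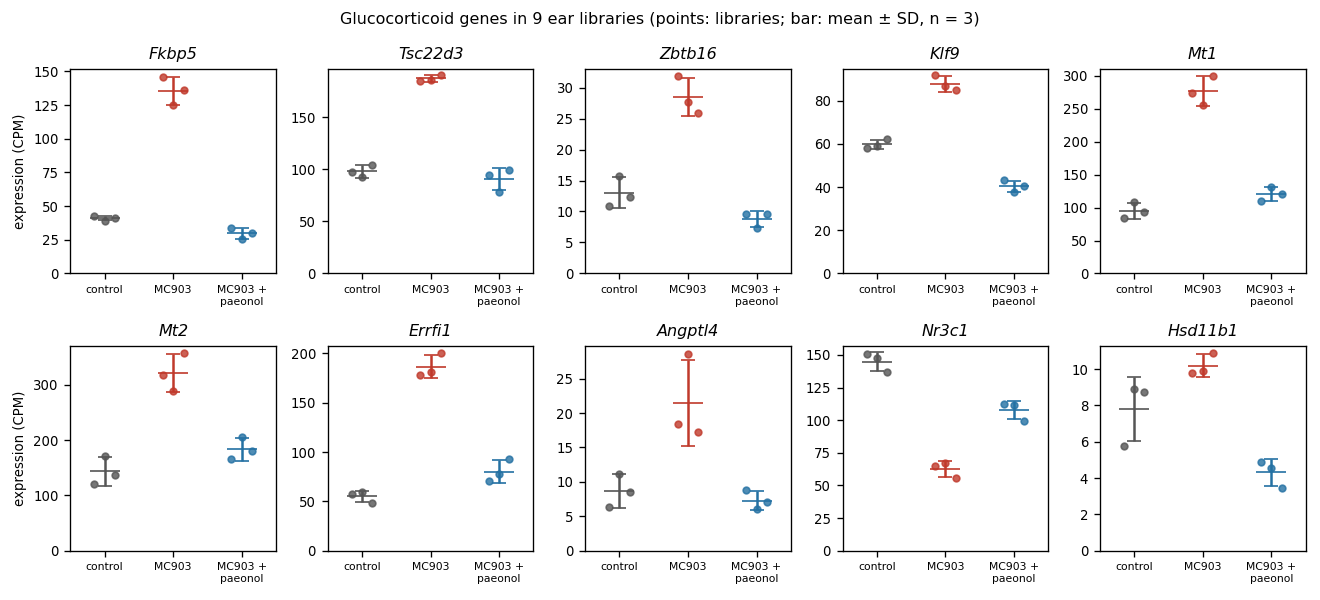
Expression of the 10 genes in CPM (vertical axes, linear, from 0) in each library (points), with the mean ± SD of the 3 libraries of a group; the horizontal axes give the groups. The 8 induced genes stand highest in the 3 MC903 libraries, and Nr3c1 stands lowest there.

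Fkbp5 (chromosome 17, 28399094 to 28517527, minus strand), which encodes a co-chaperone that restrains the receptor, was at 42.7, 39.3 and 41.3 CPM in the 3 control libraries. It was at 146, 125 and 136 CPM in MC903 and at 33.7, 25.5 and 30.4 CPM with paeonol. All 3 MC903 libraries were above every other library, and all 3 paeonol libraries were below every control library. The log2 change of Fkbp5 was 1.72 ± 0.10 (SE) for MC903 against control, -2.18 ± 0.10 for paeonol against MC903 and -0.46 ± 0.10 for paeonol against control, each called.

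Tsc22d3 (chromosome X, 140539528 to 140600659, minus strand) encodes GILZ, a leucine zipper protein that binds and restrains NF-κB and AP-1. Its 3 control libraries were at 97.8, 92.1 and 104 CPM, the MC903 libraries at 184, 186 and 191 CPM and the paeonol libraries at 94.3, 78.3 and 99.2 CPM. The MC903 libraries lay closely together above the rest, while control and paeonol libraries overlapped. Log2 changes were 0.93 ± 0.08 for MC903 against control and -1.05 ± 0.08 for paeonol against MC903, both called, and -0.11 ± 0.08 for paeonol against control, not called; under scaling by library totals the last change was -0.28 and called.

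Zbtb16 (chromosome 9, 48654297 to 48836222, minus strand), the gene of the zinc finger transcription factor PLZF, had 10.9, 15.8 and 12.4 CPM in control, 31.8, 27.7 and 25.9 CPM in MC903 and 9.57, 7.29 and 9.62 CPM with paeonol. The groups were apart from each other, with paeonol lowest. Its log2 changes were 1.13 ± 0.16, -1.69 ± 0.16 and -0.56 ± 0.16 in the order MC903 against control, paeonol against MC903 and paeonol against control. The call against control ended without control library 2 or paeonol library 2 (log2 change -0.40 and -0.44).

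Klf9 (chromosome 19, 23141226 to 23168134, plus strand) encodes a Krüppel-like transcription factor that the receptor induces in many tissues. It was at 58.3, 59.1 and 62.3 CPM in control, 92.1, 86.8 and 85.0 CPM in MC903 and 43.1, 37.8 and 40.3 CPM with paeonol. As for Fkbp5 and Zbtb16, no library of one group reached the range of another, and the paeonol libraries were the lowest. The rise in MC903 was the smallest among the 8 induced genes, with a log2 change of 0.56 ± 0.07, and paeonol differed from MC903 by -1.12 ± 0.07 and from control by -0.57 ± 0.07. The SD of log2 CPM within groups was 0.0709 for Klf9, below the median of 0.127 over genes whose mean log2 CPM reached 2.

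The metallothionein genes Mt1 and Mt2 encode small cysteine-rich proteins that bind zinc and copper, and they neighbour each other (chromosome 8, plus strand; Mt2 from 94172664 to 94173568 and Mt1 from 94179082 to 94180327). Mt1 was at 84.4, 108 and 93.8 CPM in control, 275, 255 and 300.1 CPM in MC903 and 110.1, 132 and 120.4 CPM with paeonol. Mt2 was at 121, 172 and 137 CPM in control, 318, 289 and 358 CPM in MC903 and 165, 205 and 180.0 CPM with paeonol. For both genes the MC903 libraries were the 3 highest; paeonol and control overlapped for Mt2 and did not for Mt1. MC903 against control gave log2 changes of 1.54 ± 0.10 for Mt1 and 1.17 ± 0.13 for Mt2, and paeonol against MC903 gave -1.20 ± 0.10 and -0.81 ± 0.13, all called. Paeonol against control gave 0.34 ± 0.10 for Mt1, called, and 0.36 ± 0.13 for Mt2, not called.

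The metallothionein results against control depended on single libraries and on scaling. The Mt1 call ended without control library 1 or 3 or paeonol library 2 or 3 (log2 changes of 0.26, 0.32, 0.27 and 0.34) and under scaling by library totals (0.17). Mt2 was called higher without control library 2 (0.51) or paeonol library 1 (0.44) and with DESeq2 (0.36). Read in the sense direction, transcripts of Mt1 and Mt2 shared no stretch of 50 bases with transcripts of any other gene, the partner included. Reverse complements were not compared, so antisense features were not covered. Exons of Mt2 overlap the antisense feature Gm45774, which had 417 to 567 estimated counts in control, 1198 to 1301 in MC903 and 381 to 584 with paeonol, against 7574 to 10458, 15650 to 19728 and 9335 to 11131 for Mt2. No source used here gives the strand setting of the counting, so reads of this pair cannot be told apart.

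Errfi1 (chromosome 4, 150853919 to 150868892, plus strand) encodes MIG6, a feedback inhibitor of the EGF receptor. Its libraries were at 57.2, 59.6 and 48.7 CPM in control, 178, 182 and 200.0 CPM in MC903 and 70.2, 77.5 and 92.5 CPM with paeonol. The groups were apart, with paeonol between control and MC903. The log2 changes were 1.76 ± 0.11 for MC903 against control, -1.22 ± 0.11 for paeonol against MC903 and 0.54 ± 0.11 for paeonol against control, each called.

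Angptl4 (chromosome 17, 33773750 to 33781830, minus strand) encodes a secreted inhibitor of lipoprotein lipase. It was at 6.32, 11.2 and 8.50 CPM in control, 18.4, 28.6 and 17.3 CPM in MC903 and 8.78, 5.99 and 7.00 CPM with paeonol. MC903 library 2 was well above the other 2 libraries of its group, and the SD of log2 CPM within groups, 0.366, was the largest of the 10 genes. MC903 against control gave a log2 change of 1.30 ± 0.25 and paeonol against MC903 -1.56 ± 0.25, both called, and paeonol against control gave -0.26 ± 0.25, not called, with overlapping groups.

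Set against control, the 8 induced genes with paeonol were on both sides of it: Fkbp5, Zbtb16 and Klf9 were called lower, Mt1 and Errfi1 were called higher, and Tsc22d3, Mt2 and Angptl4 were not called. These calls do not separate Mt1 from Mt2, whose changes were 0.34 ± 0.10 and 0.36 ± 0.13, and the calls of Zbtb16, Mt1, Mt2 and Tsc22d3 changed under other settings. In that comparison 14.5% of all genes were called lower and 16.3% higher. The pattern of Fkbp5, Zbtb16 and Klf9, called higher with MC903, lower with paeonol than with MC903 and lower than control, was met by 170 genes, 0.775% of those tested; all 3 comparisons were known when the genes were proposed, and nothing is read from this share.

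**Figure D2:**
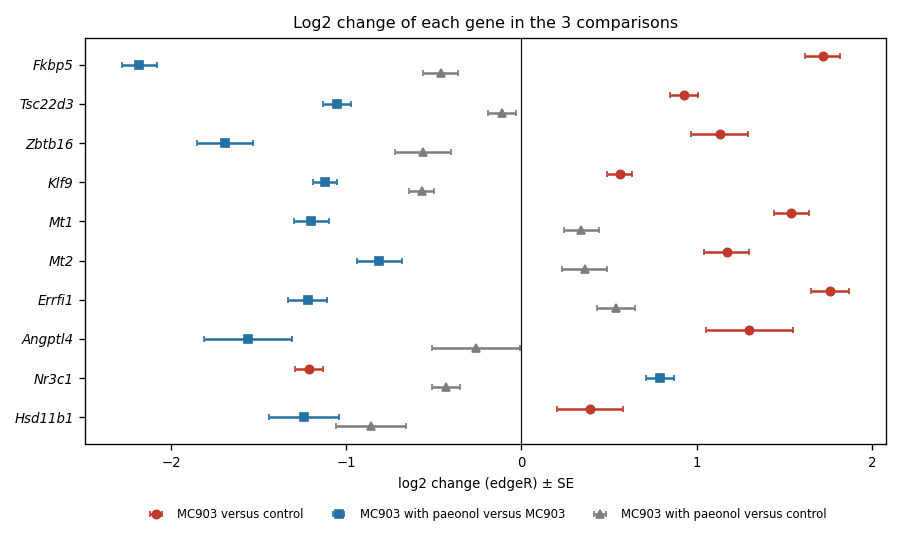
Log2 change (horizontal axis, edgeR, ± SE) of each of the 10 genes (vertical axis) for MC903 against control (circles), MC903 with paeonol against MC903 (squares) and MC903 with paeonol against control (triangles). Circles of the 8 induced genes lie to the right of 0 and squares to the left, and for Nr3c1 the sides are exchanged; triangles lie on both sides.

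The ear is a mixture, and markers of its cell types also changed. In bulk RNA, fewer cells of a type and less RNA per cell cannot be told apart. Beside the counts of called markers, here and for the other cell types below, stand the shares over all genes tested. These were 23.0% higher and 23.8% lower in MC903 against control, and 15.3% higher and 14.3% lower with paeonol against MC903. Of 12 monocyte and macrophage markers, 11 were higher in MC903 than in control and 1 was lower. The lower one, Ccr2, was at 55.5 CPM in control, 29.9 in MC903 and 40.4 with paeonol. With paeonol 0 of the 12 markers were called higher than with MC903 and 11 lower. Of the 12 markers, 8 had the pattern of Fkbp5, Zbtb16 and Klf9, ending below control, as did 0.775% of all genes tested. With paeonol against control, 9 of these 12 and 8 of 8 endothelial markers were lower. So were 20 of 20 muscle, 12 of 14 adipocyte and 8 of 10 fibroblast markers, with 0 higher in each of these lists. Basal keratinocyte markers had 3 lower and 4 higher of 8, differentiated ones 0 and 7 of 10. Sebaceous gland markers had 2 and 0 of 10, neutrophil markers 0 and 1 of 8. Over all genes 14.5% were lower and 16.3% higher. The summed level of the 12 markers was 1082 to 1179 CPM in control, 1894 to 2115 CPM in MC903 and 595 to 939 CPM with paeonol. Neutrophil markers had 4 higher and 0 lower of 8 tested in MC903 against control and 1 higher (Cxcr2) and 3 lower (Csf3r, Retnlg and Mmp8) with paeonol against MC903. Their summed levels, to which S100a8 and S100a9 gave the most, were 91.9 to 338, 262 to 378 and 273 to 308 CPM in control, MC903 and paeonol. The sum therefore says little on the markers at lower levels. Csf3r was at 6.15, 20.8 and 5.46 CPM in the same order, Retnlg at 0.139, 2.33 and 0.13 and Mmp8 at 0.205, 3.19 and 0.409. Cxcr2, at 3.51, 10.4 and 18.3 CPM, was highest with paeonol. Endothelial markers had 0 higher and 3 lower of 8 tested in MC903 against control. In that comparison 5 were not called, and the median log2 change of the list was 0.1. With paeonol against MC903 endothelial markers had 0 higher and 7 lower. Their summed levels were 286 to 336, 301 to 334 and 158 to 229 CPM in control, MC903 and paeonol. No gene of the cell type lists was at 0 in every library. The part of these cells in the changes of the induced genes was not tested.

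The receptor gene Nr3c1 moved against the genes its product induces. It was at 150.5, 147 and 137 CPM in control, 64.6, 67.4 and 55.4 CPM in MC903 and 112, 111 and 99.5 CPM with paeonol. The MC903 libraries were the 3 lowest, the controls the 3 highest, and the paeonol libraries lay between without overlap. The log2 change was -1.21 ± 0.08 for MC903 against control, 0.79 ± 0.08 for paeonol against MC903 and -0.43 ± 0.08 for paeonol against control, each called. Nr3c2, the mineralocorticoid receptor, which also binds corticosterone, was at 10.1 ± 2.00 CPM in control, 3.52 ± 0.187 in MC903 and 5.84 ± 0.998 with paeonol (SD, n = 3). It fell in MC903 by 1.51 ± 0.19 on the log2 scale (edgeR adjusted p = 5.45e-05) and was higher with paeonol than with MC903 by 0.73 ± 0.19 (edgeR adjusted p = 0.0123).

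Markers of several other compartments were lower in MC903, as Nr3c1 was. Adipocyte markers, of which 14 of 14 were lower in MC903 than in control, summed to 556 to 739.9 CPM in control, 309 to 380.1 CPM in MC903 and 339 to 374 CPM with paeonol. Skeletal muscle markers, 19 of 20 lower in MC903, summed in the same order to 7099 to 10658, 3175 to 4059 and 3683 to 4892 CPM, and fibroblast markers, 7 lower and 1 higher of 10, to 8911 to 9689, 3028 to 4203 and 4321 to 5508 CPM. Sebaceous gland markers, 7 of 10 lower in MC903, summed to 5987 to 7813, 765 to 1515 and 3405 to 4571 CPM. With paeonol against MC903, 6 of 14 adipocyte and 6 of 20 muscle markers were higher, with 1 lower in each list. In that comparison fibroblast markers had 4 higher and 1 lower of 10, and sebaceous gland markers 7 higher and 0 lower of 10. The mean log2 CPM of the adipocyte list was 4.76 in control, 3.16 in MC903 and 3.77 with paeonol. Basal keratinocyte markers had 2 higher and 4 lower of 8 tested in MC903 against control and 5 higher and 1 lower with paeonol against MC903. Within that list Krt14 changed by 1.30 ± 0.07 and Krt15 by -2.59 ± 0.13 in MC903 (edgeR adjusted p = 4.13e-07 and 4.92e-07). The list summed to 15645 to 17478, 21054 to 22182 and 20673 to 21892 CPM. Differentiated keratinocyte markers had 2 higher and 4 lower of 10 in MC903 and 8 higher and 0 lower with paeonol against MC903, and summed to 12139 to 17703, 7647 to 20026 and 48119.7 to 57559 CPM. The 2 higher in MC903, in this list and in the basal list, are near the 23.0% of all genes called higher. The part of these cell types in the changes of Nr3c1 and the other genes was not tested.

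Hsd11b1 (chromosome 1, 193221634 to 193264075, minus strand) was expressed at 5.79, 8.91 and 8.72 CPM in control, 9.77, 9.91 and 10.9 CPM in MC903 and 4.91, 4.57 and 3.45 CPM with paeonol. Each MC903 library was above each control library, but the log2 change of 0.39 ± 0.19 was not called. With paeonol all 3 libraries were below all others, with log2 changes of -1.24 ± 0.20 against MC903 and -0.86 ± 0.20 against control, both called. H6pd, the enzyme that supplies the HSD11B1 reaction with NADPH, was at 25.6 ± 3.58 CPM in control, 33.8 ± 2.96 in MC903 and 16.5 ± 2.02 with paeonol (SD, n = 3). Its changes were 0.40 ± 0.12 for MC903 against control (edgeR adjusted p = 0.0183), -1.03 ± 0.12 for paeonol against MC903 (edgeR adjusted p = 0.000116) and -0.63 ± 0.12 for paeonol against control (edgeR adjusted p = 0.0027). H6pd was chosen for mention after its values were seen. Hsd11b2, whose enzyme inactivates the hormone, did not pass the expression filter, with at most 12 estimated counts in a library.

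Compared per exonic length, Mt2 was the most abundant of the 10 transcripts in every group and Hsd11b1 the least. In control the levels, in CPM per kilobase of exon, ran from 244 ± 43.8 (SD, n = 3) for Mt2 through 76.6 ± 9.68 for Mt1, 22.6 ± 1.36 for Tsc22d3, 18.9 ± 0.917 for Nr3c1, 15.4 ± 1.60 for Errfi1, 12.4 ± 0.441 for Klf9 and 4.34 ± 0.178 for Fkbp5 to 2.46 ± 0.483 for Zbtb16, 2.45 ± 0.691 for Angptl4 and 1.84 ± 0.411 for Hsd11b1. The libraries of Zbtb16 and Angptl4 overlapped, as did those of Angptl4 and Hsd11b1. In MC903 Nr3c1 stood in place 7, at 8.13 ± 0.818 CPM per kilobase, below Fkbp5 at 14.3 ± 1.09. With paeonol Nr3c1 was in place 5, at 14.0 ± 0.920, above Klf9 at 8.40 ± 0.551 and Fkbp5 at 3.15 ± 0.438. Exonic length was the union of all annotated exons of a gene in GENCODE M21, so a gene read mainly from a short isoform is understated.

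In each library, the mean of the 8 induced genes on the log2 CPM scale, each gene set to 0 at its mean over the 9 libraries, was between -0.52 and -0.25 in control, between 0.87 and 0.88 in MC903 and between -0.58 and -0.42 with paeonol. The MC903 libraries lay closer together than those of either other group. Nr3c1 on the same scale was between 0.47 and 0.61 in control, between -0.84 and -0.55 in MC903 and between 0.01 and 0.18 with paeonol. Control library 2 was the highest of its group for the induced genes, and paeonol library 2 the lowest.

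**Figure D3:**
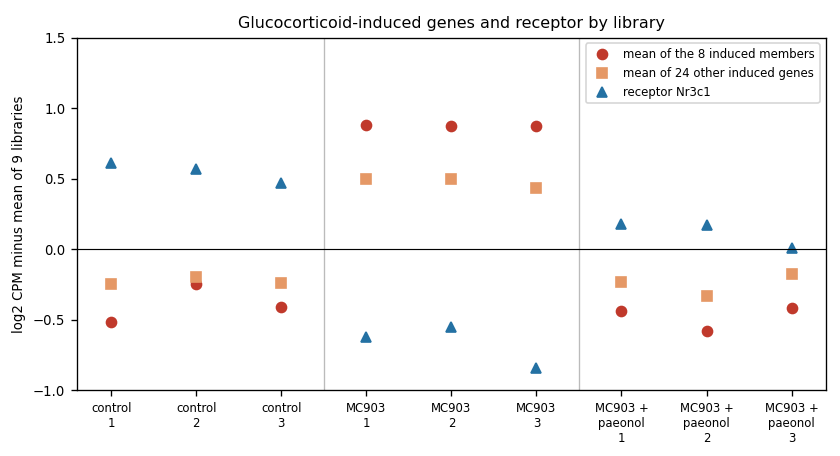
Level of each library (horizontal axis) as log2 CPM minus the mean of the 9 libraries (vertical axis): the mean of the 8 induced genes (circles), the mean of 24 other glucocorticoid-induced genes (squares) and Nr3c1 (triangles). The 3 MC903 libraries lie between 0.87 and 0.88 for the 8 genes and between -0.84 and -0.55 for Nr3c1.

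Within the 10 genes the patterns over the 9 libraries were most alike for Mt1 and Errfi1, with a root mean square difference of 0.168 on the log2 scale after each profile was centred on its mean, then for Mt1 and Mt2 (0.182) and for Tsc22d3 and Klf9 (0.212). They were most unlike for Fkbp5 and Nr3c1 (1.4). By the same measure, the closest of 12337 other genes whose mean log2 CPM reached 2 were for Fkbp5 the aminopeptidase gene Lvrn (0.2), the granulocyte colony-stimulating factor receptor Csf3r (0.2) and the lectin gene Clec10a (0.229). For Tsc22d3 they were Snx8 (0.0789), the sialidase gene Neu1 (0.0796) and Pcbp3 (0.0951), and for Zbtb16 Chpf (0.152), Igsf6 (0.155) and Cyyr1 (0.159). For Klf9 they were Lrrc32 (0.107), the TGF-β coreceptor endoglin, Eng (0.119), and Fermt3 (0.129). For Nr3c1 they were the transcription factor gene Nfix (0.063), Krba1 (0.0797) and Apmap (0.0826). Nfix, for example, was at 276 ± 13.3 CPM in control, 121 ± 7.55 in MC903 and 218 ± 16.6 with paeonol (SD, n = 3). These likenesses rest on 3 group levels and share the same libraries, so they are a description.

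Beyond these genes, 24 others known to be induced by glucocorticoids were examined, listed from general knowledge of the receptor with earlier results of these libraries known. In MC903 17 of the 24 were higher and 5 lower than in control, with a median log2 change of 0.77; 23.0% of all genes were called higher and 23.8% lower. With paeonol 5 were higher and 17 lower than in MC903, with a median of -0.71, where 15.3% of all genes were called higher and 14.3% lower. Against control, paeonol libraries had 8 higher and 7 lower, where 16.3% of all genes were called higher and 14.5% lower. Of the 24 genes, 16 were called higher with MC903 and then lower with paeonol than with MC903, and 5 the reverse, against 10.9% and 11.7% of all genes; the comparisons share the MC903 libraries.

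Among the genes that rose in MC903, Slc10a6, a steroid sulfate transporter gene, went from 11.1 ± 1.63 CPM in control to 87.0 ± 12.2 in MC903 and was at 50.3 ± 13.9 with paeonol (SD, n = 3). Its log2 change was 2.97 ± 0.21 (edgeR adjusted p = 7.14e-06). Ddit4, an inhibitor of the growth kinase mTOR, had 36.7 ± 4.28, 167 ± 7.35 and 50.2 ± 6.66 CPM in the same order, with changes of 2.19 ± 0.11 in MC903 (edgeR adjusted p = 1.83e-07) and -1.74 ± 0.10 for paeonol against MC903 (edgeR adjusted p = 1.91e-06). The kinase gene Map3k6 rose by 1.67 ± 0.10 in MC903 (edgeR adjusted p = 4.23e-07). Hif3a, the gene of a hypoxia-inducible factor subunit, was at 3.03 ± 0.273 CPM in control, 8.17 ± 1.14 in MC903 and 1.59 ± 0.404 with paeonol. It changed by -2.36 ± 0.23 for paeonol against MC903 and by -0.93 ± 0.22 for paeonol against control (edgeR adjusted p = 3.21e-05 and 0.0087). Cd163, a haemoglobin scavenger receptor of macrophages, and Fam107a changed by -1.89 ± 0.24 and -1.75 ± 0.23 for paeonol against MC903 (edgeR adjusted p = 0.000879 and 0.000217).

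Smaller changes were seen in other well-known targets. The clock gene Per1 was at 56.6 ± 1.97 CPM in control, 100.2 ± 14.8 in MC903 and 65.3 ± 10.5 with paeonol, the phosphatase gene Dusp1 at 52.6 ± 2.08, 84.8 ± 19.0 and 50.9 ± 2.30 CPM, and the kinase gene Sgk1 at 132 ± 1.56, 180.0 ± 9.37 and 149 ± 10.1 CPM (SD, n = 3). All 3 rose in MC903, by 0.82 ± 0.13, 0.69 ± 0.13 and 0.45 ± 0.06 on the log2 scale, and were lower with paeonol than with MC903, with changes of -0.62 ± 0.13, -0.74 ± 0.13 and -0.27 ± 0.06 (edgeR adjusted p between 0.00151 and 0.00826). The 5 genes of the list that were lower in MC903 were Bcl6 (-0.82 ± 0.10), Il1r2 (-0.86 ± 0.09), Pik3r1 (-0.83 ± 0.07), Arrdc2 (-0.58 ± 0.11) and Sesn1 (-0.39 ± 0.09), named after their values were seen. The same 5 genes were the 5 called higher with paeonol than with MC903, by 0.23 to 0.68. Cdkn1c, a cell cycle inhibitor, was not called in MC903 (-0.23 ± 0.12) and was lower with paeonol than in control (-0.91 ± 0.12, edgeR adjusted p = 0.000275). The count of 5 genes higher with paeonol than with MC903 was 3 without MC903 library 1 or paeonol library 2, 2 without MC903 library 2 or 3, and 1 without paeonol library 1.

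**Figure D4:**
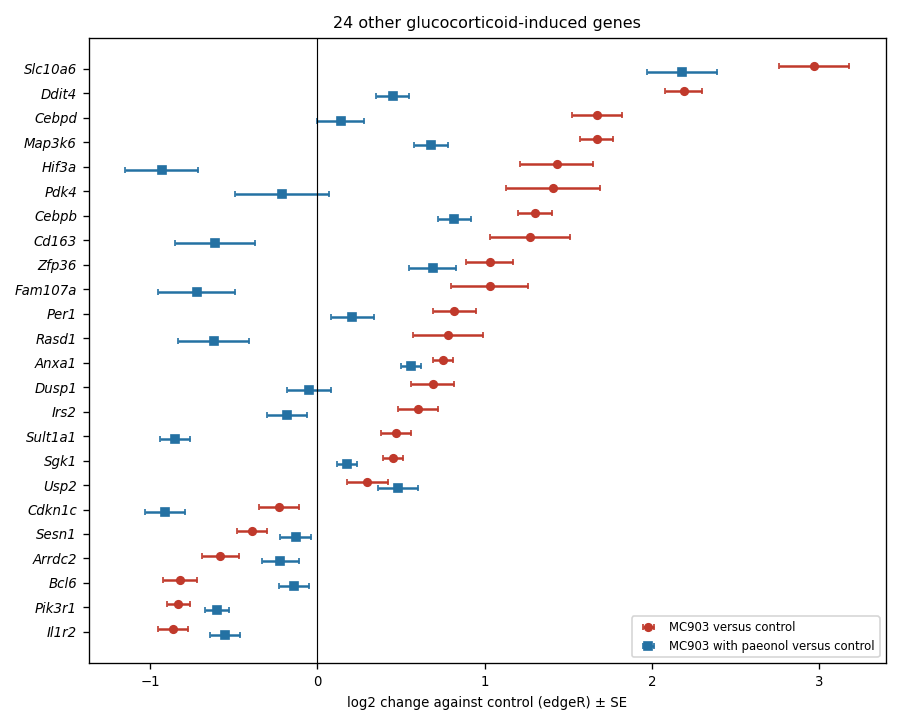
Log2 change against control (horizontal axis, edgeR, ± SE) of 24 other glucocorticoid-induced genes (vertical axis) for MC903 (circles) and MC903 with paeonol (squares). In MC903 17 were called higher and 5 lower, beside 23.0% and 23.8% of all genes. With paeonol 8 were called higher and 7 lower, beside 16.3% and 14.5% of all genes.

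Of 13 tested inflammatory genes known to be repressed by glucocorticoids, 8 were higher and 0 lower in MC903 than in control, and 0 were higher and 7 lower with paeonol than with MC903; 5 and 6 of the 13 were not called. For these counts and those of the lists that follow, the shares over all genes were 23.0% higher and 23.8% lower in MC903 against control, and 15.3% higher and 14.3% lower with paeonol against MC903. Mmp13, a collagenase gene, was at 6.30 ± 1.25 CPM in control, 499 ± 165 in MC903 and 121 ± 77.2 with paeonol (SD, n = 3), and Ptgs2, the gene of cyclooxygenase-2, at 4.12 ± 0.984, 87.6 ± 6.58 and 14.0 ± 5.60 CPM. Cxcl2, a neutrophil-attracting chemokine gene, changed by 2.75 ± 0.32 in MC903 and by -3.64 ± 0.34 for paeonol against MC903 (edgeR adjusted p = 0.000144 and 0.000107).

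Receptor chaperones and coregulators had 6 higher and 3 lower of 17 tested in MC903 against control, and 3 higher and 4 lower with paeonol against MC903, of which the 3 lower and the 3 higher are near the shares over all genes. The chaperone gene Hspa8 was at 725 ± 42.0 CPM in control, 1716 ± 31.3 in MC903 and 1011 ± 131 with paeonol (SD, n = 3), with changes of 1.24 ± 0.09 and -0.76 ± 0.09 (edgeR adjusted p = 1.07e-06 and 7.86e-05). Ptges3, the p23 co-chaperone that stabilises the hormone-binding form of the receptor, rose by 0.95 ± 0.08 in MC903 (edgeR adjusted p = 2.26e-06), and Hsp90aa1 was lower with paeonol than with MC903 (log2 change -0.35 ± 0.08, edgeR adjusted p = 0.00807).

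Of 18 genes listed for steroid synthesis, breakdown, transport and upstream hormone signals, 11 passed the expression filter. Of these, 3 were higher and 5 lower in MC903 than in control, and 3 were higher and 2 lower with paeonol than with MC903. Akr1d1, a reductase of steroid hormones and bile acid precursors, was at 0.121 ± 0.0285 CPM in control, 137 ± 8.99 in MC903 and 61.5 ± 32.7 with paeonol (SD, n = 3). Srd5a1, another steroid reductase, was at 35.2 ± 3.49, 12.3 ± 2.70 and 33.7 ± 2.58 CPM, a fall of 1.51 ± 0.15 on the log2 scale in MC903 (edgeR adjusted p = 8.67e-06) and a change of 1.45 ± 0.15 for paeonol against MC903 (edgeR adjusted p = 3.75e-05). Hsd3b6 changed by -2.32 ± 0.46 and 2.41 ± 0.46 in these comparisons (edgeR adjusted p = 0.00405 and 0.00601). Cyp17a1 was higher with paeonol than in control by 1.37 ± 0.13 (edgeR adjusted p = 4.78e-05).

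Other genes of metal handling did not all follow Mt1 and Mt2. Of 11 tested, 5 were higher and 0 lower in MC903 than in control, and 3 were higher and 1 lower with paeonol than with MC903. The 1 lower gene was the zinc importer gene Slc39a14, at 40.6 ± 9.99 CPM in control, 163 ± 16.7 in MC903 and 43.0 ± 2.51 with paeonol (SD, n = 3), with a change of -1.92 ± 0.16 against MC903 (edgeR adjusted p = 3.25e-05). Slc30a1, a zinc exporter gene induced by the same metal sensor as the metallothioneins, was at 49.9 ± 7.14, 65.5 ± 2.55 and 93.4 ± 9.12 CPM and was higher with paeonol than with MC903 by 0.51 ± 0.10 (edgeR adjusted p = 0.00298). Mt4, a metallothionein gene of stratified epithelium, was at 57.1 ± 13.1, 27.2 ± 17.5 and 128 ± 21.5 CPM and was higher with paeonol than with MC903 by 2.24 ± 0.54 (edgeR adjusted p = 0.0226).

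Genes of the PPAR receptors and their targets, to which Angptl4 also belongs, had 1 higher and 12 lower of 15 tested in MC903 against control. They had 7 higher and 2 lower with paeonol against MC903. Some genes of this list are also in the adipocyte marker list, so the counts of both lists partly rest on the same genes. Angptl4 was higher in MC903 and then lower with paeonol, and the part of these receptors in its changes was not tested. Ppard, the gene of a receptor of this family, was the 1 higher in MC903, at 28.9 ± 1.18 CPM in control, 65.3 ± 3.56 in MC903 and 38.8 ± 4.60 with paeonol (SD, n = 3). Circadian clock genes, several of which follow glucocorticoid rhythm, had 2 higher and 14 lower of 18 tested in MC903 against control, and 12 higher and 2 lower with paeonol against MC903; Hlf changed by -2.77 ± 0.18 and 2.76 ± 0.18 (edgeR adjusted p = 3.88e-06 and 1.49e-05).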

How the data were processed

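Messenger RNA libraries of ears (3 per group) were made by oligo(dT) selection and dUTP second-strand marking, per the labels' protocols. The authors deposited 1 table of estimated counts per gene, whole numbers used as deposited; the submitters' processing notes name cutadapt, HISAT2 2.0.4, StringTie 1.3.4d and GRCm38. No source used here states how the counts were derived, the annotation or a strand setting.

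The count 4 occurred 8984 times, against 5694 times for 3 and 3257 times for 5, which no source used here explains; counts divided by 4 were an alternative. Genes were matched by Ensembl identifier; 55141 of 55401 features had a symbol. All 9 libraries were fitted together in edgeR 4.0.16 (R 4.3.3; TMM factors 0.942 to 1.09; minimum count 10, minimum total 15; robust quasi-likelihood test; Benjamini-Hochberg threshold 0.05). The common biological coefficient of variation was 0.214. SE was derived from the log2 change and its F statistic. CPM are group means ± SD or library values. The fit was also run on simulated counts that gave all genes a common spread and changed only a small part of them. That run cannot check the scaling or the spread of single genes in these data, where many genes changed. Alternatives were DESeq2 1.42.0, other scaling and filters, a replicate block, and leaving out each library.

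The members and lists were chosen with earlier results of these data known. Other genes were named by a rule: up to 3 per list and comparison, called, with mean log2 CPM of at least 0 and the largest change, plus Per1, Dusp1, Sgk1, Hsd11b2 and Nr3c2. H6pd, Bcl6, Il1r2, Pik3r1, Arrdc2, Sesn1, Ccr2, Retnlg, Mmp8, S100a8 and S100a9 fall outside it and were named after their values were seen.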

Additional observations from a re-analysis of the deposited data

How the results depend on the processing

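Across 17 alternative settings, the 30 changes of the 10 genes (10 in each of 3 comparisons) gave 510 values: 499 kept their direction and side of the threshold, 7 lost and 4 gained a call, and 0 reversed. All 11 that moved were Tsc22d3, Zbtb16, Mt1 and Mt2 in paeonol against control. Of the 10 genes, 9 were called in MC903 against control and 10 in paeonol against MC903 under every setting; in paeonol against control the count of 7 ran from 5 to 8 when single libraries were left out. Of 24 other induced genes, the counts of 22, 22 and 15 ran from 22 to 23, 17 to 22 and 12 to 15 without single libraries and from 22 to 23, 21 to 22 and 12 to 18 under the other settings. Scaling by library totals took the median change over all genes, on the log2 scale, from -0.015 to -0.205 in MC903 against control and from -0.035 to -0.197 in paeonol against control. It turned 5044 higher and 5215 lower calls into 3402 and 7224, and 3578 and 3187 into 2155 and 5354, and the 24 genes had 7 higher and 11 lower in the latter. Same-numbered libraries did not deviate together over all genes (9 pairs, correlations from -0.0113 to 0.04). With 3 libraries per group this check cannot exclude that the numbers pair them, and the labels name no pairing. With the replicate block 9, 10 and 7 of the 10 genes and 23, 22 and 14 of the 24 were called. Hsd11b1, Angptl4 and Zbtb16, the genes with the lowest levels per exonic length, are the least precisely measured.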
